A study of Lotus japonicus with 10 samples.

Results

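Heat shock transcription factors of the legume Lotus japonicus were followed in leaves given 10 mM glutathione (GSH), a thiol tripeptide used in this study as an elicitor. The family was taken as every non-control probe whose name on the array begins with LjHSF. This gave 44 probes of the 5716 non-control probes, under 26 of the 3148 names. The names carry 18 LjHSF numbers, and 8 of the numbers also occur with the suffix _est, which the sources used here do not define and which is set beside the plain name below. Probes of 1 number may report the same transcript and were not counted as independent genes. The membership rests on the names of the array's design: none of the 26 names was met by a symbol, locus tag or synonym among the 40429 genes of the reference table, so the label could not be checked against sequence.

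Mature leaves of the MG20 accession, from plants raised in a glasshouse, made up 3 groups: GSH 3 h (3 arrays), GSH 6 h (3 arrays) and unelicited (4 arrays, labelled 0 h). For elicitation, cut leaves were submerged in the GSH solution and shaken at 200 rpm at 28 °C. No group was submerged, shaken and held at 28 °C without GSH. Effects of GSH therefore cannot be told apart from those of detachment, submersion, shaking, temperature and time. Each sample was labelled with a single dye and hybridised to an array of its own. The submitters call the arrays of a group biological replicates and give no more on how leaves or plants were shared. A p-value here therefore measures the spread between these samples.

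Heat shock transcription factors bind heat shock elements in promoters, largely as trimers, and switch on genes for chaperones and other protective proteins. In plants the family is large and falls into classes A, B and C. Class A members carry activator motifs, whereas many class B members lack them and can act as repressors, and in Arabidopsis several members respond to oxidative stress as well as to heat. The sources used here do not assign the LjHSF numbers to these classes, so no role is given to a single number, and the members are described in order of their response.

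The software flagged 2644 to 3805 probes per array as well above background. Slide 1, scanned apart from slide 2, held unelicited replicates 1 and 2. Slide 2 held the remaining 8 arrays, unelicited replicates 3 and 4 among them. Over the tested probes, the correlation of unelicited arrays was 0.973 to 0.978 on the same slide and 0.825 to 0.851 across slides, and that of unelicited with GSH arrays was 0.322 to 0.452. No name on the array met the lists of leaf, root or nodule markers, so the tissue label could not be checked. The flower and seed list met 6 probes for LEAFY names, of which 5 were detected on 0 arrays and 0 were tested. In total RNA, fewer cells of a type and less transcript per cell cannot be told apart.

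Of the 44 LjHSF probes, 35 passed the filter on dim probes, which asked that the scanner software flag the spot as well above background throughout 1 group or more, and these stood for 21 names and 15 numbers. Of these, 29 were well above background on all 10 arrays, and 6 passed only through GSH arrays: LjHSF3 b, LjHSF4 b, LjHSF14 a, LjHSF14 b, LjHSF15 b and LjHSF15_est. Comparisons of these 6 with unelicited leaves are therefore not independent of that filter. The letters a and b tell apart the 2 probes of a name. All values below are log2 signals relative to the array's 75th percentile, fold changes come from limma over all 10 arrays, and adjusted p-values are Benjamini-Hochberg values over 3309 tested probes with a threshold of 0.05. Levels are compared within a probe only.

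After 3 h in GSH, 25 of the 35 tested LjHSF probes were higher than in unelicited leaves and 0 were lower, against 37.5% higher and 36.7% lower among all tested probes. At an unadjusted p under 0.05 the counts in limma were again 25 and 0, against 1269 and 1252 of all 3309 tested probes. The median log2 fold change was 1.66 for the LjHSF probes and -0.05 for all tested probes. In 24 probes every 3 h array lay above every unelicited array, and in 0 every one lay below, against 38.3% and 37.4% of all tested probes. By number, every tested probe passed for 10 of 15 LjHSF numbers, LjHSF7 passed with some of its probes, and LjHSF1, LjHSF5, LjHSF15 and LjHSF18 had none. Among the 29 probes detected on all arrays, 21 (72.4%) were higher and 0 lower, against 44.4% and 25.3% of the 2114 probes of the same kind. The counts of the family depended on the scaling. With the percentile taken over probes detected on every array, the median was 0.60 for the LjHSF probes and -1.11 for all tested probes. Under it, 17 LjHSF probes were higher (background 24.2%) and 4 were lower (background 50.2%).

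**Figure D1:**
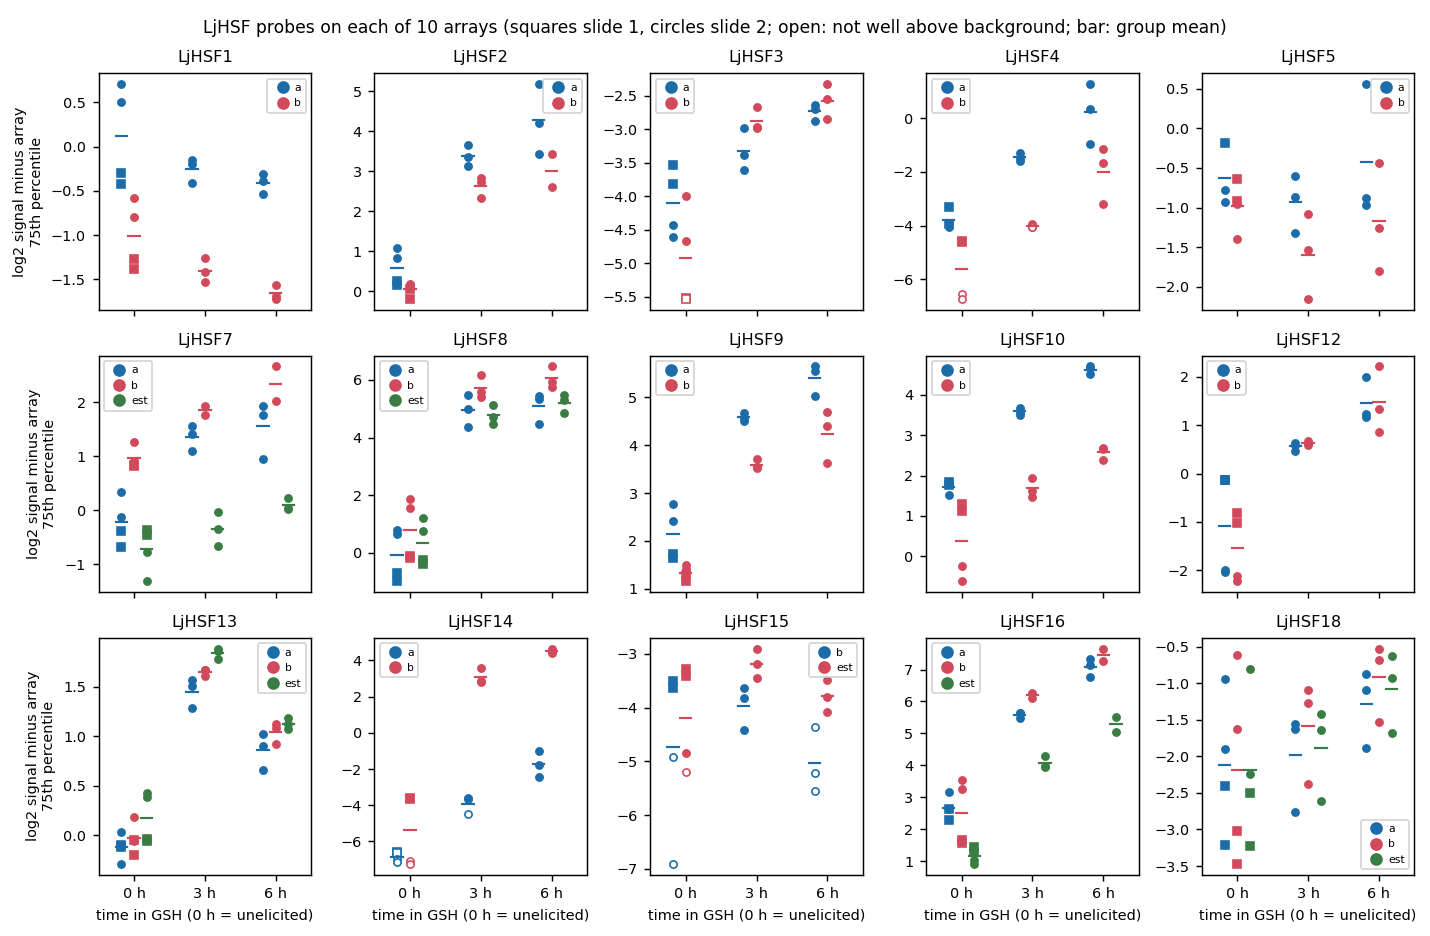
Log2 signal relative to the array's 75th percentile (y axis) for the tested probes of 15 LjHSF numbers at 0 h (unelicited, 4 arrays), 3 h and 6 h in GSH (3 arrays each; x axis), 1 point per array, with squares for slide 1, circles for slide 2, open symbols for spots not well above background, and bars for group means. LjHSF14 b, LjHSF8 and LjHSF16 stand far above their unelicited arrays at both times, LjHSF13 is highest at 3 h, and the probes of LjHSF5 and LjHSF18 overlap between groups.

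LjHSF14 b gave the largest measured difference of the 35 tested probes. Both LjHSF14 probes passed the dim filter only through GSH arrays, where they were high, so their p-values are not independent of that filter. It read 3.58, 2.87 and 2.82 on the 3 h arrays, against -3.57 and -3.68 on the unelicited arrays of slide 1 and -7.05 and -7.23 on those of slide 2. As deposited, these are spot intensities of 4900, 4040 and 3020 at 3 h, against 27.7, 17.7, 7.71 and 4.22 in unelicited leaves, of which the 2 on slide 1 were well above background. The log2 fold change of the measured means was 8.48 with a standard error (SE) of 0.89 (adjusted p = 1.14e-05). Within slide 2, where both unelicited spots were dim, the rise was at least 258-fold against the lowest signal well above background. LjHSF14 a read -3.61, -3.64 and -4.50 on the 3 h arrays, 2 of them well above background. On the unelicited arrays it read -7.14 to -6.59 and was too dim to be flagged on any. Its fold change against the lowest signals detected on the unelicited arrays was therefore at least 2.30-fold (adjusted p = 5.64e-05 for the measured means). The measured means of LjHSF14 a and b thus changed unequally, by 2.92 and 8.48 on the log2 scale. Their gap of 5.56 was the widest between probes of 1 number at 3 h.

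LjHSF8 followed, and its 3 probes gave like changes. LjHSF8 b read 5.57, 5.42 and 6.19 at 3 h, against -0.12, -0.17, 1.85 and 1.55 in unelicited leaves, so the lowest GSH array lay well clear of the highest unelicited array. Its log2 fold change was 4.95 (SE 0.53, a 30.9-fold rise, adjusted p = 1.34e-05). For this probe unelicited leaves read 1.85 higher on slide 2 than on slide 1, and within slide 2 the change was 4.03. LjHSF8 a changed by 5.01 (SE 0.51, adjusted p = 1e-05) and LjHSF8_est by 4.44 (SE 0.42, adjusted p = 5.66e-06), with the unelicited arrays of slide 2 above those of slide 1 in both. These rises passed in every alternative run, with adjusted p-values of at most 2.9e-04.

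LjHSF16 rose on all 3 of its probes. LjHSF16 a read 5.64, 5.47 and 5.65 at 3 h, against 2.62, 2.28, 3.16 and 2.64 in unelicited leaves. The 2 groups were separated by more than their own spread, and the log2 fold change was 2.91 (SE 0.28, a 7.53-fold rise, adjusted p = 6.32e-06). LjHSF16 b rose by 3.67 (SE 0.62, adjusted p = 7.4e-04), with 1 of the 3 h spots left out as an outlier. LjHSF16_est rose by 2.90 (SE 0.27, adjusted p = 9.46e-06). LjHSF16 b was 1.79 higher on the unelicited arrays of slide 2 than on those of slide 1, whereas LjHSF16_est was 0.39 lower there, and within slide 2 their changes were 2.78 and 3.09.

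LjHSF2 and LjHSF9 rose by similar amounts. LjHSF2 a read 3.13, 3.37 and 3.66 at 3 h, against 0.26, 0.15, 0.82 and 1.09 in unelicited leaves, a log2 fold change of 2.80 (SE 0.42, adjusted p = 1.5e-04). LjHSF2 b rose by 2.58 (SE 0.29, adjusted p = 3.48e-05). Neither LjHSF2 probe overlapped between the groups. LjHSF9 a read 4.57, 4.50 and 4.67 at 3 h, against 1.72, 1.64, 2.77 and 2.42 in unelicited leaves. It rose by 2.44 (SE 0.33, adjusted p = 7.3e-05), and LjHSF9 b rose by 2.25 (SE 0.29, adjusted p = 4.95e-05).

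LjHSF4 also rose on both of its probes. LjHSF4 a read -1.60, -1.49 and -1.30 at 3 h, against -3.33, -3.94, -4.05 and -3.92 in unelicited leaves, and rose by 2.34 (SE 0.46, adjusted p = 9.57e-04). LjHSF4 b read -4.07, -3.96 and -4.06 at 3 h, against -4.62 and -4.59 on slide 1 and -6.56 and -6.74 on slide 2 in unelicited leaves. It was well above background on 2 of 3 arrays at 3 h and on 2 of 4 unelicited arrays, and its rise of 1.60 (SE 0.65, adjusted p = 0.0453) passed in 4 of the 10 fits that left out an array. Within slide 2, where both unelicited spots of LjHSF4 b were dim, its change was at least 1.86-fold.

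LjHSF10, LjHSF12, LjHSF13, LjHSF3 and LjHSF7 rose more moderately. LjHSF10 a read 3.58, 3.50 and 3.68 at 3 h, against 1.85, 1.77 and 1.51 on the 3 unelicited arrays with a value, a 3.68-fold rise, and LjHSF10 b rose 2.45-fold. LjHSF12 a and b rose 3.13-fold and 4.54-fold, although their unelicited arrays on slide 2 lay 1.88 and 1.26 below those on slide 1. The unelicited level of LjHSF10 b likewise was 1.65 lower on slide 2, and its call held in 6 of the 10 fits that left out an array. Within slide 2 alone the log2 changes were 2.08 and 2.12 for LjHSF10 a and b and 2.59 and 2.81 for LjHSF12 a and b. The 2 probes of each number gave closer values there. The slide 2 value of LjHSF10 a rests on unelicited replicate 4 alone, since replicate 3 had no value.

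LjHSF13 had the smallest standard errors of the 35 tested probes. LjHSF13_est read 1.78, 1.88 and 1.86 at 3 h, against -0.04, -0.06, 0.43 and 0.38 in unelicited leaves. The 3 probes rose 2.96-fold to 3.19-fold with standard errors of at most 0.24 on the log2 scale, and their groups did not overlap. For LjHSF13 a the unelicited arrays of the 2 slides differed by only -0.02.

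The probes of LjHSF3 and of LjHSF7 also gave unequal changes, though less so than those of LjHSF14. LjHSF3 b rose 4.16-fold at 3 h, and LjHSF3 a rose 1.71-fold (adjusted p = 0.0484) with groups that overlapped, a call that held in 2 of the 10 fits leaving out an array. LjHSF3_est was well above background on 2 of 3 arrays at 3 h and on 0 of 4 unelicited arrays. It was not tested, and its difference was at least 1.90-fold. LjHSF7 a rose by 1.57 (SE 0.34, adjusted p = 0.00178) and LjHSF7 b by 0.89 (SE 0.32, adjusted p = 0.0336), the second held in 5 of 10 such fits and not within slide 2 (adjusted p = 0.082). LjHSF7 b had a value on 2 of the 3 arrays at 3 h, since the spot of replicate 2 was left out as an outlier. LjHSF7_est differed by 0.37 (SE 0.30, adjusted p = 0.272) and did not pass. The changes of LjHSF3 a and LjHSF7 b were -0.29 and -0.17 under the scaling on probes detected everywhere, so their direction at 3 h turned with the scaling.

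LjHSF1, LjHSF5, LjHSF15 and LjHSF18 had no probe that passed at 3 h. LjHSF1 a read -0.15, -0.42 and -0.19 at 3 h, against -0.29 and -0.43 on slide 1 and 0.71 and 0.51 on slide 2 in unelicited leaves. The 3 h arrays thus lay near the unelicited arrays of slide 1 and below those of slide 2, where they were hybridised. Over all arrays the differences were -0.38 and -0.39 for LjHSF1 a and b and did not pass. Within slide 2 they were -0.86 and -0.71 (adjusted p = 0.010 and 0.023). LjHSF15_est differed by 1.00 over all arrays (adjusted p = 0.0814) and by 1.84 within slide 2 (adjusted p = 4.3e-04), with its unelicited arrays 1.68 lower on slide 2 than on slide 1. Over all arrays LjHSF18 differed by 0.13 to 0.60 and LjHSF5 a and b by -0.30 and -0.61, with groups that overlapped. The 3 h means of LjHSF18 a, LjHSF18 b and LjHSF18_est were -1.98, -1.58 and -1.89. They lay below the unelicited means of slide 2 (-1.42, -1.12 and -1.52) and above those of slide 1 (-2.81, -3.24 and -2.86). LjHSF18 did not pass within slide 2 either. Under the scaling on probes detected everywhere, LjHSF5 a and b were -1.32 and -1.68 (adjusted p = 0.025 and 0.0029) and made up the 4 lower calls with LjHSF1 a and b.

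**Figure D2:**
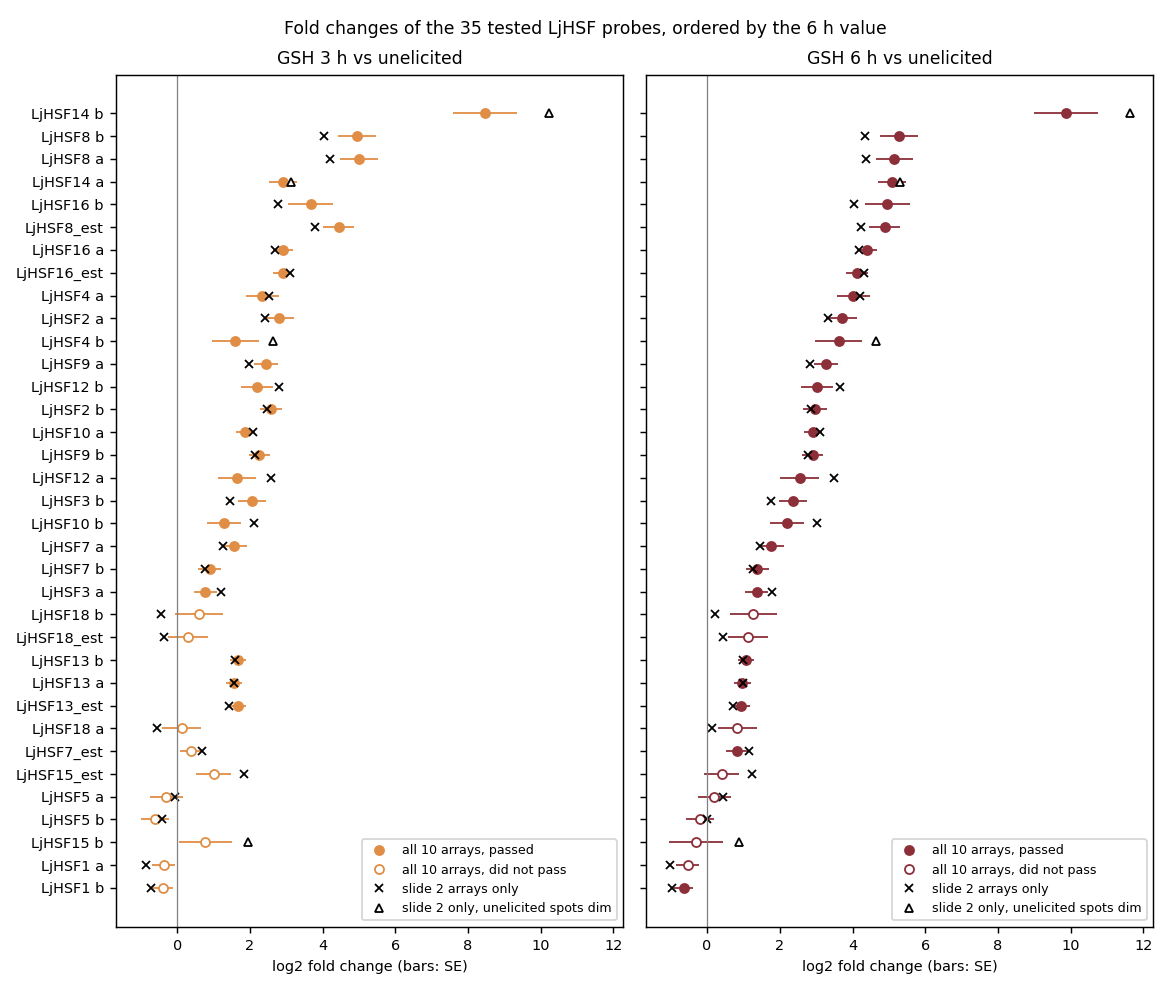
Log2 fold changes (x axis, bars are standard errors) of the 35 tested LjHSF probes (y axis) at 3 h and 6 h against unelicited leaves, with filled points for probes that passed, open points for those that did not, and crosses for the fit of the 8 arrays of slide 2 alone (triangles where both unelicited spots of slide 2 were not well above background, so that the value has no measured baseline). At both times most points lie right of 0, with LjHSF14 b at 8.48 and 9.88, and the slide 2 values of LjHSF18 lie left and those of LjHSF15 right of their points.

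After 6 h in GSH, 26 of the 35 tested LjHSF probes were higher than in unelicited leaves and 1 was lower, against 37.5% and 38.4% of all tested probes. At an unadjusted p under 0.05 the LjHSF counts were the same, against 1278 higher and 1304 lower of all 3309 tested probes. The median log2 fold change was 2.36, against -0.07 over all tested probes. Among the 29 probes detected on all arrays, 22 (75.9%) were higher and 1 was lower, against 43.7% and 26.8% of such probes, with medians of 2.19 and 0.59. In 26 probes the 6 h arrays all lay above the unelicited arrays and in 1 they all lay below, against 36.7% and 37.5% of all tested probes. Under the scaling on probes detected everywhere, the median was 1.29 for the LjHSF probes and -1.13 for all tested probes. With it, 18 LjHSF probes were higher (background 25.2%) and 3 lower (background 50.8%). All 25 probes that were higher at 3 h were also higher at 6 h, and LjHSF7_est was added. The comparisons at 3 h and 6 h share their unelicited arrays.

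LjHSF14 b reached 4.64, 4.44 and 4.39 at 6 h, a log2 fold change of the measured means of 9.88 against unelicited leaves (SE 0.89, adjusted p = 3.56e-06) and a rise of at least 682-fold within slide 2. LjHSF14 a read -1.01, -1.79 and -2.45 at 6 h and was well above background on all 3 arrays. Its rise over unelicited leaves, where it stayed below that limit, was at least 10.3-fold (adjusted p = 9.81e-07 for the measured means). The measured means of LjHSF14 a and b again changed unequally, by 5.09 and 9.88 on the log2 scale. As at 3 h, the p-values of both probes are not independent of the dim filter.

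LjHSF8 stood at 5.91, 6.47 and 5.77 for probe b at 6 h, with log2 fold changes of 5.15, 5.27 and 4.88 for LjHSF8 a, LjHSF8 b and LjHSF8_est. All 3 had adjusted p-values of at most 7.94e-06. LjHSF16 a read 7.33, 7.14 and 6.77 and rose by 4.40 (SE 0.28, a 21.2-fold rise, adjusted p = 3.3e-07). LjHSF16 b rose by 4.95 (SE 0.62, adjusted p = 1.15e-04) and LjHSF16_est by 4.11 (SE 0.30, adjusted p = 2.01e-06), each with 1 spot of the 6 h arrays left out. These 2 numbers had the lowest 6 h value above the highest unelicited value on every probe.

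LjHSF4 a read 1.27, -0.96 and 0.33 at 6 h, a wide spread, and rose by 4.02 (SE 0.46, a 16.2-fold rise, adjusted p = 2e-05). LjHSF4 b rose by 3.62 (SE 0.65, adjusted p = 5.07e-04), with 6 h values of -1.14, -3.21 and -1.68. GSH 6 h replicate 1 was the highest and replicate 2 the lowest on both probes. LjHSF2 a read 5.18, 4.22 and 3.44 and rose by 3.70 (SE 0.42, adjusted p = 1.91e-05), and LjHSF9 a read 5.65, 5.55 and 5.03 and rose by 3.27 (SE 0.33, adjusted p = 8.47e-06). LjHSF12 b, at 2.22, 1.34 and 0.86, rose 8.10-fold, and LjHSF10 a, at 4.71, 4.66 and 4.51, rose 7.54-fold.

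LjHSF13 also rose at 6 h. LjHSF13_est read 1.12, 1.18 and 1.07 at 6 h, above its highest unelicited array. The 3 LjHSF13 probes rose 1.92-fold to 2.10-fold over unelicited leaves with adjusted p-values of 0.00137 to 0.00443, but the scaling on probes detected everywhere gave log2 changes of -0.09 for LjHSF13 a and -0.12 for LjHSF13_est. LjHSF7_est read 0.02, 0.22 and 0.04 at 6 h, against -0.36, -0.45, -0.77 and -1.32 in unelicited leaves, and rose by 0.82 (SE 0.30, adjusted p = 0.0286), a change of -0.24 under the same scaling. LjHSF7 a and b rose 3.41-fold and 2.61-fold, with 1 of the 6 h spots of LjHSF7 b left out. LjHSF3 a and b rose 2.58-fold and 5.12-fold. The untested LjHSF3_est was well above background on 1 of 3 arrays at 6 h.

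LjHSF1 b was the member called lower at 6 h. It read -1.68, -1.56 and -1.72, against -1.27 and -1.38 on slide 1 and -0.58 and -0.80 on slide 2 in unelicited leaves. All 6 h arrays lay below all unelicited arrays, and the level fell by 0.65 on the log2 scale (SE 0.27, adjusted p = 0.0477), a call that held in 2 of the 10 fits that left out an array. LjHSF1 a differed by -0.53 over all arrays (adjusted p = 0.153), and within slide 2 LjHSF1 a and b differed by -1.02 and -0.97 (adjusted p = 0.0041 and 0.0051). LjHSF5, LjHSF15 and LjHSF18 had no probe that passed over all arrays. LjHSF15_est differed by 0.40 over all arrays and by 1.24 within slide 2 (adjusted p = 0.0041), with 1 of the 2 unelicited spots there well above background. LjHSF5 b was -1.25 under the scaling on probes detected everywhere (adjusted p = 0.014). For LjHSF18 the unelicited arrays of slide 2 lay 1.33 to 2.12 above those of slide 1, and its 3 probes differed by 0.83 to 1.27 over all arrays and by 0.13 to 0.45 within slide 2.

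Unelicited levels of single members differed between the slides. The median absolute difference between the unelicited arrays of slide 2 and slide 1 was 0.84 for the tested LjHSF probes and 0.88 for all tested probes, with LjHSF14 b at -3.51 and LjHSF18 b at 2.12 as the extremes of the family. In 19 of the 35 LjHSF probes slide 2 was the higher. With the 8 arrays of slide 2 alone, 26 LjHSF probes were higher and 2 lower at 3 h (background 38.9% and 39.2%), and 27 were higher and 2 lower at 6 h (background 38.6% and 40.5%). The lower pair was LjHSF1 a and b at both times. Scaling on the array's spike-in controls instead, whose signals differed by slide, gave 10 higher and 3 lower at 3 h (background 18.5% and 46.6%) and 11 higher and 3 lower at 6 h (background 17.8% and 53.9%).

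**Figure D3:**
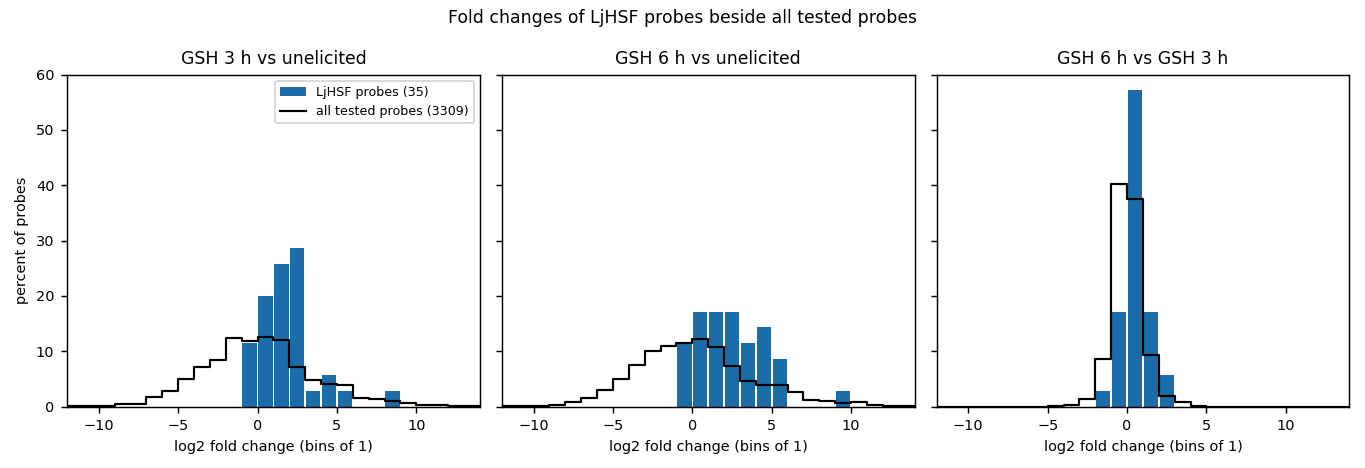
Percent of probes (y axis) by log2 fold change in bins of 1 (x axis), for the 35 tested LjHSF probes (bars) and all 3309 tested probes (line), in each comparison. At 3 h and 6 h the LjHSF bars start at the bin below 0, whereas all tested probes spread to both sides with medians of -0.05 and -0.07.

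Between the times the changes were small next to those against unelicited leaves. At 6 h, 3 LjHSF probes were higher than at 3 h and 0 were lower, against 3.35% and 1.99% of all tested probes. At an unadjusted p under 0.05 limma gave 7 higher and 3 lower, against 391 and 333 of all 3309 tested probes. The median log2 difference was 0.59 for the LjHSF probes and -0.01 for all tested probes. The difference was above 0 in 28 of 35 LjHSF probes and in 1641 of all 3309 tested probes. In 15 LjHSF probes the 6 h arrays all lay above the 3 h arrays and in 5 they all lay below, against 18.4% and 20.0% of all tested probes. All 6 arrays of this comparison were on slide 2, but the spread in the main test also drew on the unelicited arrays of both slides.

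LjHSF14 a was the largest of these, at -1.01, -1.79 and -2.45 on the 6 h arrays, against -3.61, -3.64 and -4.50 on the 3 h arrays. It was 2.17 higher at 6 h (SE 0.41, adjusted p = 0.0167), with 1 of the 3 h arrays not well above background. LjHSF14 a passed the dim filter only through the 6 h arrays. Among the 29 LjHSF probes detected on all arrays 2 were higher between the times, against 2.32% of all such probes. With the normexp background correction the difference of LjHSF14 a was 0.43. LjHSF16 a, at 7.33, 7.14 and 6.77 against 5.64, 5.47 and 5.65 at 3 h, was 1.49 higher (SE 0.30, adjusted p = 0.0208). LjHSF10 a, at 4.71, 4.66 and 4.51 against 3.58, 3.50 and 3.68, was 1.04 higher (SE 0.25, adjusted p = 0.0482). The arrays of the 2 times did not overlap for any of these 3 probes. The call of LjHSF14 a held in 7, that of LjHSF16 a in 5 and that of LjHSF10 a in 1 of the 10 fits that left out an array.

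The other probes of LjHSF10, LjHSF14 and LjHSF16, and both of LjHSF4, differed in the same direction without passing over all arrays. LjHSF16_est was 1.21 higher at 6 h (adjusted p = 0.063), LjHSF16 b 1.28, LjHSF14 b 1.40, LjHSF10 b 0.89, LjHSF4 a 1.68 (adjusted p = 0.0806) and LjHSF4 b 2.02. Within slide 2 alone, 8 LjHSF probes were higher at 6 h (background 8.21%) and 1 was lower (background 6.56%). The 8 were both probes of LjHSF10 and LjHSF14, the 3 of LjHSF16, and LjHSF4 b. The lower one was LjHSF13_est, at 1.12, 1.18 and 1.07 at 6 h against 1.78, 1.88 and 1.86 at 3 h. The scaling on probes detected everywhere gave 2 higher (background 3.41%) and 0 lower (background 1.84%). At an unadjusted p under 0.05 in limma it gave 3 lower, against 329 of all 3309 tested probes. Spike-in scaling gave 0 higher (background 0.181%) and 0 lower (background 0.242%), with 1 higher and 1 lower at an unadjusted p under 0.05 in limma.

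LjHSF1, LjHSF13 and LjHSF15 had differences below 0 on each of their tested probes between the times. LjHSF15 b differed by -1.08 and LjHSF15_est by -0.60, and the LjHSF1 probes by -0.16 and -0.25. None of these passed over all arrays. LjHSF15 b was well above background on 3 arrays at 3 h and on 0 at 6 h. The 3 LjHSF13 probes differed by -0.59, -0.60 and -0.72 between 6 h and 3 h, with no overlap between the arrays of the times, but over all arrays their adjusted p-values were 0.137 to 0.201. LjHSF8 differed by 0.15 to 0.44 between the times, within the spread of its arrays. For LjHSF8 b the standard error of 0.57 exceeded the difference of 0.32.

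**Figure D4:**
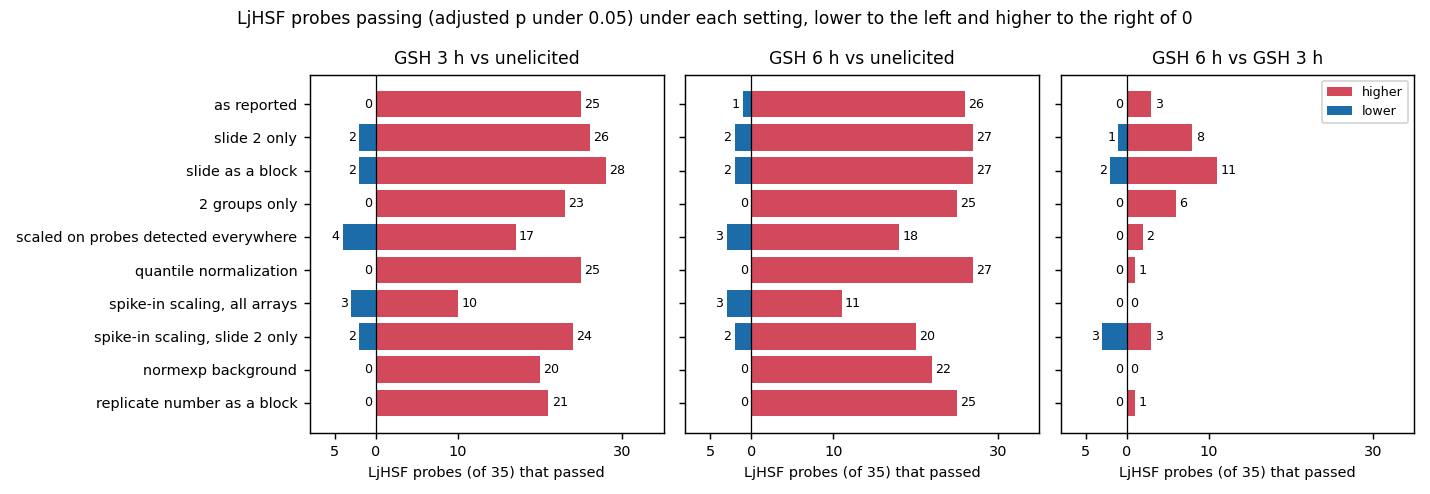
Number of LjHSF probes that passed at an adjusted p under 0.05 (x axis, of 35; higher to the right of 0, lower to the left) under the reported and 9 other settings (y axis) in each comparison. Higher calls at 3 h number between 10 and 28, and those between the times between 0 and 11. Over all tested probes, higher calls under these settings number 612 to 1351 at 3 h and 6 to 361 between the times.

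The 9 untested LjHSF probes were LjHSF3_est, LjHSF6 a and b, LjHSF11 a and b, LjHSF12_est, LjHSF15 a and LjHSF17 a and b. LjHSF6 a was well above background on 0 of 6 GSH arrays and on 2 of 4 unelicited arrays, both on slide 1, where it read -4.18 and -4.17. LjHSF6 b was detected on 1 array, also unelicited and on slide 1. LjHSF11 b was detected on 0 of 10 arrays and LjHSF11 a on 1 unelicited array. LjHSF12_est was well above background on 2 arrays at 3 h, 1 at 6 h and the 2 unelicited arrays of slide 1, unlike LjHSF12 a and b, which were detected on all arrays. LjHSF15 a was detected on 2 arrays at 3 h, 1 at 6 h and 3 unelicited arrays, and LjHSF17 a and b on 1 and 3 arrays in all.

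Of the listed partner genes of the heat stress pathway (heat shock proteins, other chaperones, DREB factors, ascorbate peroxidases and MBF1), the array's names met only MBF1, under 5 names with 9 probes. MBF1 proteins are coactivators that link transcription factors to the basal machinery, and in Arabidopsis a stress-responsive member contributes to heat tolerance. Of 8 tested LjMBF1 probes, 3 were higher and 1 lower at 3 h, 5 were higher and 2 lower at 6 h, and 0 passed between the times (0 at an unadjusted p under 0.05). Among all tested probes 37.5% were higher and 36.7% lower at 3 h, and 37.5% and 38.4% at 6 h, so the LjMBF1 share at 3 h (37.5% higher) equalled the background. LjMBF1-3 a, LjMBF1-4 a and LjMBF1-4 b passed the dim filter only through GSH arrays, so their calls are not independent of it. Among the 5 LjMBF1 probes detected on all arrays, 2 were higher and 1 lower at 3 h, and 2 and 2 at 6 h. Of all probes detected on all arrays, 44.4% were higher and 25.3% lower at 3 h, and 43.7% and 26.8% at 6 h. LjMBF1-1 a read 7.48, 7.77 and 7.62 at 3 h and 9.05, 9.17 and 8.02 at 6 h, against 2.56, 2.74, 1.07 and 0.92 in unelicited leaves. It rose 55.7-fold at 3 h and 121-fold at 6 h, with log2 changes of 6.63 and 7.75 within slide 2. LjMBF1-4 b rose at both times, and within slide 2, where both of its unelicited spots were dim, by at least 9.23-fold at 3 h and 17.3-fold at 6 h. LjMBF1-2 a ran the other way and fell by 1.35 at 3 h and by 1.10 at 6 h on the log2 scale.

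Beside other transcription factor families on the array, the share of higher probes at 3 h was 71.4% for LjHSF, 71.1% for the 121 tested LjWRKY probes, 51.3% for the 76 LjbZIP probes, 47.8% for the 90 LjNAM probes and 37.5% for all tested probes. Lower probes numbered 0 of 35 for LjHSF, 13 of 121 for LjWRKY, 19 of 76 for LjbZIP and 21 of 90 for LjNAM, against 36.7% of all tested probes. The median log2 fold changes at 3 h were 1.66 for LjHSF, 2.65 for LjWRKY, 1.11 for LjbZIP and 0.98 for LjNAM. With the percentile over probes detected everywhere, 24.2% of all tested probes were higher and 50.2% lower. Of the LjHSF probes, 17 were higher and 4 lower. The counts were 66 and 29 for LjWRKY, 24 and 31 for LjbZIP, and 24 and 30 for LjNAM. The larger direction thus turned for LjbZIP and LjNAM over all their tested probes. Among their probes detected on all arrays it did not turn, with 20 higher and 19 lower for LjbZIP and 16 and 13 for LjNAM. For LjHSF and LjWRKY these counts were 14 and 4, and 46 and 22. Of all probes detected on all arrays, 26.2% were higher and 41.5% lower under this scaling. No test was made between families.

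Replicate arrays of the GSH groups were close for the family. The median SD over LjHSF probes was 0.24 at 3 h, 0.37 at 6 h and 0.55 in unelicited leaves, beside 0.29, 0.38 and 0.60 over all tested probes. GSH 3 h replicate 3 was the highest of its group in 18 of 33 LjHSF probes with a value on all 3 arrays, against 36.1% of all tested probes. GSH 6 h replicate 1 was the highest in 16 of 31 LjHSF probes, against 37.3% of all tested probes. With 3 arrays a group, these counts are a description and carry no test.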

How the data were processed

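Total RNA from 10 leaf samples was hybridised to single-dye Agilent arrays. Per the file headers, the deposited files give linear spot intensities made with Agilent Feature Extraction 10.7.3.1, with the background subtracted, spatial trends removed and no scaling between arrays. The deposited value table holds the same intensities.

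The processed signal was put on a log2 scale, with no pseudocount, and centred on each array's 75th percentile of the non-control probes. Outlier spots (4 to 64 per array) were left out. Deposited flags for spots well above background set the filter on dim probes, which kept 3310 probes, 1 without an estimate. Groups followed the sample labels. Group means were fitted with lmFit and eBayes of limma 3.58.1 under R 4.3.3 over all 10 arrays, two-sided, with Benjamini-Hochberg adjustment. Where a group was dim on every array, a bound was set against the lowest signal well above background. The number of arrays limits the precision. Same-numbered replicates did not deviate together (correlations -0.0437 to 0.0634 over 3148 probes, none over 0.1), so the numbers were not treated as pairs.

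Every LjHSF probe may be named. Full statistics go to up to 8 names with the largest changes that passed, to those that passed between times or were lower, and to names whose probes differ. Members, lists and tests were chosen with earlier results of these data known. Other settings changed the background correction (normexp with offset 50 on median signals), the scaling (spike-ins among others), the dim filter, the outliers, the value source, the variance model, slide and replicate blocks, the arrays fitted and the probes per name. The code was tested on simulated data. The files hold no probe sequences, so none are printed.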

Additional observations from a re-analysis of the deposited data

Results flagged for a closer look

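A difference between the 2 elicitation times, by its own limma contrast, passed for 3 LjHSF probes. LjHSF10 a was 1.04 higher at 6 h than at 3 h, LjHSF14 a was 2.17 higher and LjHSF16 a was 1.49 higher, all on the log2 scale. LjHSF14 a passed the dim filter only through the 6 h arrays, where it was highest, so its call is not independent of that filter. Over the alternatives, adjusted p-values reached 0.71 for LjHSF10 a, 0.75 for LjHSF14 a and 0.38 for LjHSF16 a. A check of the 4 unelicited arrays for an array far from the others (a gap over 0.829 of the range) covered 42 LjHSF probes and marked 0. Chance alone marks about 1 in 20 groups of 4 like arrays. Here 2 of the 4 arrays lay on each slide, and a difference between slides sets no single array far from the others. The check could therefore hardly show such a difference, and its 0 is no sign of an even baseline.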

How the results depend on the processing

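Counts are LjHSF probes that passed, higher and lower in the GSH group or at the later time. As reported they were 25 and 0 at 3 h, 26 and 1 at 6 h, and 3 and 0 between the times. Shares of all tested probes, in the same order, were 37.5% and 36.7%, 37.5% and 38.4%, and 3.35% and 1.99%. Spike-in scaling over all arrays gave 10 and 3, 11 and 3, and 0 and 0 (background 18.5% and 46.6%, 17.8% and 53.9%, and 0.181% and 0.242%). The spike-in signals themselves lay higher on slide 2 (mean log2 of 14.4 to 15.4) than on slide 1 (11.6 to 11.7), and the median of all tested probes was -1.32 at 3 h and -1.84 at 6 h. Spike-in scaling within slide 2, chosen after seeing this, gave 24 and 2, 20 and 2, and 3 and 3 (background 31.5% and 44.1%, 27.4% and 50.8%, and 3.75% and 19.0%). The percentile over probes detected everywhere gave 17 and 4, 18 and 3, and 2 and 0 (background 24.2% and 50.2%, 25.2% and 50.8%, and 3.41% and 1.84%). Slide as a block gave 28 and 2, 27 and 2, and 11 and 2 (background 40.8% and 38.9%, 40.3% and 40.4%, and 10.9% and 9.04%). Slide 2 alone gave 26 and 2, 27 and 2, and 8 and 1 (background 38.9% and 39.2%, 38.6% and 40.5%, and 8.21% and 6.56%). With no filter on dim probes, 2 were lower at 3 h and 2 at 6 h, LjHSF6 a and b both times, against 1325 and 1339 of all 5715 probes. Taking 1 probe per name gave 14, 15 and 1 higher and 0 lower of 21. Of all 2005 such probes, 751, 742 and 52 were higher and 726, 759 and 32 lower. Normexp gave 0 lower at 6 h and 0 higher between the times, quantile normalization 0 and 1, the 2 groups alone 0 and 6, and trend with robust estimation 0 lower at 6 h. Over all 3309 tested probes, the lower counts at 6 h were 786, 1277, 1224 and 1278 in that order. The higher counts between the times were 18, 76 and 215 for all but the last. The replicate block gave 21 and 25 higher at 3 h and 6 h, 0 lower at 6 h and 1 higher between the times, and no same-numbered pair deviated together. Over all 3309 tested probes, the replicate block gave 1209, 1193, 1268 and 60 in that order. Leaving out each array in turn gave 21 to 25 higher and 0 to 0 lower at 3 h, 24 to 29 and 0 to 1 at 6 h, and 0 to 3 and 0 to 0 between the times. Over all tested probes, these ranges were 1137 to 1245 and 1109 to 1261 at 3 h, and 1129 to 1253 and 1187 to 1308 at 6 h. Between the times they were 21 to 118 and 5 to 75. The lower call at 6 h, LjHSF1 b, was lost without any 1 of 8 arrays and kept without unelicited replicate 1 or 2. The higher count between the times was 0 without GSH 3 h replicate 1 or 3, and 1 without GSH 3 h replicate 2 or GSH 6 h replicate 1 or 2. Some called changes turned sign. At 3 h, LjHSF3 a was -0.29 and LjHSF7 b -0.17 with the percentile over detected probes, and -0.51 and -0.46 with spike-ins. At 6 h, LjHSF7_est was -0.24, LjHSF13 a -0.091 and LjHSF13_est -0.12 with detected probes. At 6 h with spike-ins, LjHSF3 a was -0.41, LjHSF7 a -0.0025, LjHSF7 b -0.26, LjHSF7_est -0.95, LjHSF13 a -0.80, LjHSF13 b -0.70 and LjHSF13_est -0.83, and within slide 2 LjHSF13_est was -0.23. None of these passed in the turned direction. The cause of these differences was not tested. The 9 probes that were mostly dim have no test.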
